A study of Mus musculus with 47 samples.

Results

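Mitochondria keep their own ribosome, the mitoribosome, which translates the messages of the mitochondrial genome into core subunits of the respiratory chain and of ATP synthase. Its RNAs are mitochondrial, but all of its proteins are encoded in the nucleus, made in the cytosol and imported, so the large subunit, which forms the peptide bonds, and the small subunit, which reads the message, are assembled from many separately transcribed genes. Some of the proteins have a bacterial counterpart, while others exist only in mitochondria, and a fast-twitch muscle fibre needs this machinery to renew the respiratory chain that refills its ATP after contraction.

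The genes described here are all those whose symbol begins with Mrpl (large subunit) or Mrps (small subunit) followed by a digit. They were 77 of the 24421 genes in the count tables, of which 17153 had a count in any fibre. By name, 48 of the 77 belonged to the large and 29 to the small subunit. The names follow the nomenclature and not always the place of the protein: Mrps30 and Mrps18a encode proteins that sit in the large subunit, and Mrps36 encodes a small protein now known as a component of the 2-oxoglutarate dehydrogenase complex. Of the 77, 46 encode bacterial-type proteins, 30 encode mitochondria-specific proteins and Mrps36 is neither. Genes of the mitochondrial genome are not analysed here.

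The fibres came from the extensor digitorum longus, a fast-twitch hindlimb muscle, of FVB/N mice 2 to 3 months old. Each library was made from 1 fibre, 27 from wild-type (WT) mice and 20 from C2KO mice, which lack fast myosin-binding protein C because a neomycin cassette replaced exons of Mybpc2 in every cell. The labels name 3 WT and 2 C2KO mice but tie no fibre to a mouse, so counts were summed into the sets that the labels do separate, namely 3 WT pools by sequencing run (10, 10 and 7 fibres) and 2 C2KO pools that carry the prefixes 740 and 2445 in their fibre names (10 fibres each). These pools are the units of every test below except the fits said to use fibres as units. A pool is not known to be a mouse. The p-values over pools therefore measure only the spread between pools, which can differ from that between mice.

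Libraries held 7648762 to 14606631 gene counts. No pair of fibres was as close as sampling noise would leave copies of a library, the lowest chi-square per degree of freedom over 1081 pairs being 8.40. Mybpc2 stood at 6563 to 11556 counts per 1000000 gene counts (CPM) in WT and at 2.61 to 47.6 CPM in C2KO fibres, so every library went with its label. Markers of muscle fibres summed to 254689 CPM or more in each fibre. A list of 8 fibroblast markers summed to a median of 31.5 CPM and up to 4898 CPM in C2KO pool 740, against pool medians of 0.651 to 5.60 CPM elsewhere. The highest fibre had 340, 94.2 and 4.79 CPM in WT pools 1, 2 and 3, and 343 CPM in C2KO pool 2445. All 10 fibres of pool 740 had counts of Y-linked genes and all 10 of pool 2445 had Xist counts. Each WT pool held fibres of both kinds, and so fibres of different mice. Sequencing run was almost confounded with genotype, since only run 0092 held both, with 7 WT fibres and 1 C2KO fibre.

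All 77 genes had counts in each of the 47 fibres, the lowest being 50 counts. Together they took 0.347% to 0.397% of the gene counts of a pool. A level in CPM is a share of the library, so fewer transcripts per fibre and more of other RNA cannot be told apart.

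The first question was whether large- and small-subunit transcripts kept the same proportion with and without Mybpc2. In the WT pools the Mrpl genes summed to 2296, 2460 and 2630 CPM. In the C2KO pools they summed to 2574 CPM (740) and 2429 CPM (2445), both within the WT range. The Mrps genes summed to 1174, 1271 and 1343 CPM in the WT pools and to 1306 CPM (740) and 1256 CPM (2445) in the C2KO pools, again within the WT range. The mean over pools was 2462 ± 167 CPM (SD, n = 3) in WT and 2502 ± 102 CPM (SD, n = 2) in C2KO for the large subunit, and 1262 ± 84.8 CPM and 1281 ± 35.3 CPM for the small subunit. Both differences, 0.02 on the log2 scale, were smaller than the spread between WT pools (SD 0.10), and leaving out WT pool 1 or C2KO pool 740 turned their sign.

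The proportion of the sums varied far less than the sums themselves. The large to small ratio was 1.96, 1.94 and 1.96 in the WT pools and 1.97 (740) and 1.94 (2445) in the C2KO pools, with means of 1.950 ± 0.0132 (SD, n = 3) and 1.953 ± 0.0260 (SD, n = 2). Over WT fibres the large-subunit sum ran from 1903 to 3365 CPM (median 2456) and the small-subunit sum from 970 to 1779 CPM (median 1245), while the ratio stayed between 1.88 and 2.04 (median 1.96). Over C2KO fibres the large-subunit sum ran from 2191 to 3038 CPM (median 2482), the small-subunit sum from 1109 to 1552 CPM (median 1265) and the ratio from 1.85 to 2.04 (median 1.95). The coefficient of variation (CV, SD over mean) of the ratio was 2.33% in WT and 2.50% in C2KO, against 12.2% and 9.57% for the large-subunit sum, and counting error alone gave the ratio of a median fibre a CV of 1.06%. Within run 0092 the C2KO fibre had 2918 CPM of large-subunit transcripts, above the 7 WT fibres (2211 to 2858 CPM), and a ratio of 2.010, inside their range (1.878 to 2.014).

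**Figure D1:**
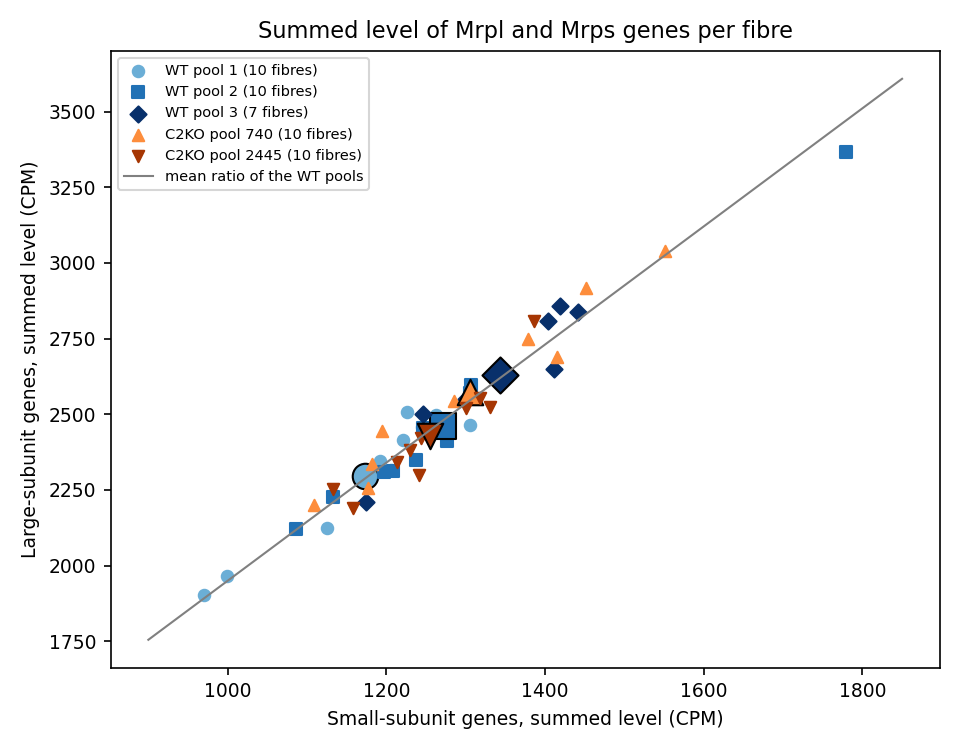
Summed level of the 29 Mrps genes (horizontal axis, CPM) against that of the 48 Mrpl genes (vertical axis, CPM), with 1 small symbol per fibre and a large outlined symbol per pool; the axes do not start at 0. Fibres of both genotypes lie along the line of the mean WT ratio of 1.950, and the fibre at the upper right, from WT pool 2, reached 3365 CPM and 1779 CPM.

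Across the 47 fibres the log2 sums of the large and small subunits correlated with Pearson's r = 0.975 (Spearman's rho 0.962), and with r = 0.973 after each fibre was centred on its pool. The points share a library and its depth, so this is a description. The summed level of all 77 genes followed the nuclear-encoded respiratory chain genes (r = 0.929) more closely than the cytosolic ribosomal protein genes (r = 0.768), and it was lower where the share of 3 abundant contractile and calcium-pump transcripts, Atp2a1, Myh4 and Acta1, was higher (r = -0.744). These 3 genes took 16.2% to 24.1% of a fibre's counts and enter the denominator of every CPM value. With total gene counts the correlation was -0.384 (-0.242 within pools) and with the number of genes detected it was -0.087.

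Pairs of the 77 genes were mostly positively correlated over the fibres. The median r was 0.435 for the 1128 pairs within the large subunit, 0.403 for the 406 pairs within the small subunit and 0.421 for the 1392 pairs between the subunits, compared with 0.033 for pairs of all genes at or above the level of the lowest of the 77. Pairs within a subunit were thus hardly closer than pairs between subunits. The correlation of each gene with the sum of the other 76 had a median of 0.666 and was above 0 for 76 of the 77. It was highest for Mrps24 and Mrps7 (both 0.87), which encode bacterial-type small-subunit proteins.

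A few genes, named after their values were seen, did not follow the rest. Mrps2, which encodes a bacterial-type small-subunit protein, had an r of -0.058 with the sum of the others. It was followed by Mrpl48 (0.17), Mrps5 (0.22), Mrps27 (0.23) and Mrpl50 (0.26). Mrps2 also had the largest CV among WT fibres, 29.7%, with fibres from 5.93 to 29.3 CPM (median 12.9), ahead of Mrpl41 (29.4%) and Mrps36 (24.9%). Within pools Mrps2 and Mrpl41 still led, with 30.2% and 28.2%, but Mrps36, whose WT pools differed in level, had 15.8%, near the median. Among C2KO fibres the CV of Mrps2 was 16.8%, near the median of 16.4% for the 77 genes. Those of Mrpl41 and Mrps36 were 25.8% and 18.5%. Exons of Mrpl48 and Mrps27 overlap those of another gene on the opposite strand.

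**Figure D2:**
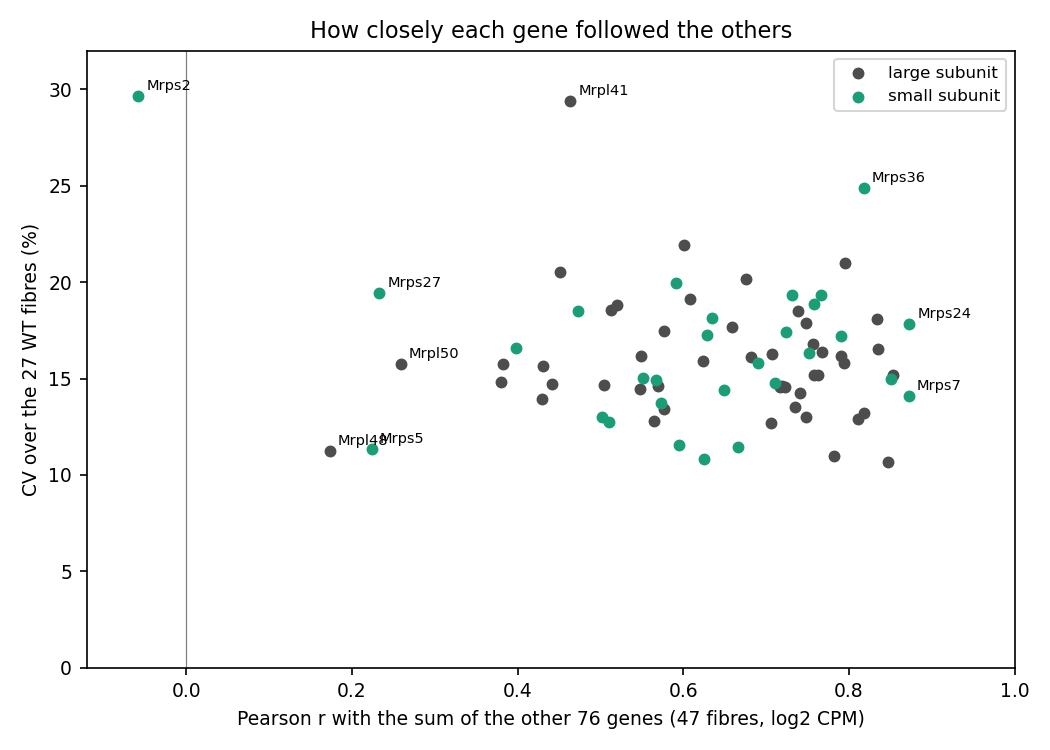
Pearson's r of each gene with the summed level of the other 76 genes over 47 fibres (horizontal axis, log2 CPM) against its CV over the 27 WT fibres (vertical axis, %), with 1 point per gene coloured by subunit. Most genes lie at the right between 10.7% and 21.9%, Mrps2 lies alone left of 0, and Mrps36 stands at 24.9%, a value that includes the difference between its WT pools and is 15.8% within them.

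The median spread of the 77 genes was below the medians of the wider sets of genes. Their median CV over WT fibres was 15.7% (range 10.7% to 29.7%), of which 14.9% remained above counting error, and it was 14.97% within pools. All genes with a mean of at least 1 CPM had a median CV of 23.6%. Those at or above the level of the lowest of the 77 had 16.97%, or 16.1% above counting error, so this gap was small. Among C2KO fibres the median was 16.4% for the 77 genes, with a range of 8.00% to 30.6%. It was 19.2% for all genes at or above the level of the lowest of the 77. Mrpl15, which encodes a bacterial-type large-subunit protein, had the smallest CV over all WT fibres, 10.7%. Within WT pools Mrps5 (9.34%), Mrps23 (9.64%) and Mrpl2 (10.2%) lay below Mrpl15 (10.7%). The largest CV in C2KO fibres, 30.6%, belonged to Mrpl12, whose protein forms part of the stalk of the large subunit. Mrpl12 ran from 45.3 to 150 CPM in C2KO (median 77.8) and from 53.2 to 110 CPM in WT (median 78.4).

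Levels of different genes were compared per length, as counts per kilobase of annotated exon per 1000000 gene counts (FPKM). On this scale the 77 genes spanned 164-fold in WT, from 2.65 FPKM for Mrpl19 to 435 FPKM for Mrpl42, with a median of 29.96 FPKM against 5.04 FPKM for all genes with a mean of at least 1 CPM. As background, most of these proteins are present in equal number in the ribosome. The order hardly differed between genotypes (Spearman's rho 0.994 over the 77 genes). The median was 29.6 FPKM for the large and 33.0 FPKM for the small subunit. In CPM, with no correction for length, the medians were 38.3 and 29.9, so the order of the subunits depended on the length correction. Genes of bacterial-type proteins had a median of 38.4 FPKM and those of mitochondria-specific proteins 20.8 FPKM. With subunits taken by place in the mitoribosome and not by name, the same order held within the large (34.1 and 23.5 FPKM) and the small subunit (45.8 and 16.7 FPKM). Without the 10 genes whose exons overlap another gene, these medians were 42.9 FPKM for bacterial-type and 22.4 FPKM for mitochondria-specific proteins. This order too depended on the length correction, since in CPM the medians were 35.9 for bacterial-type and 33.7 for mitochondria-specific proteins. Within the large subunit, again by place, the order turned (35.9 and 40.6 CPM).

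Mrpl42 (chr10:95480806-95501927, minus strand, mm10), which encodes a mitochondria-specific large-subunit protein, had 382, 432 and 493 FPKM in the WT pools and 491 FPKM (740) and 457 FPKM (2445) in the C2KO pools. It alone supplied 11.7% of the large-subunit counts in WT. Mrps21 (chr3:95862652-95870619, minus strand) led the small subunit, with 265, 284 and 318 FPKM in the WT pools, and 275 and 316 FPKM in C2KO, which was 9.31% of the small-subunit counts. Mrpl33 (chr5:31613951-31622644, plus strand) followed with 211, 219 and 262 FPKM in WT, and the pools of these 3 genes did not overlap each other.

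Below them the neighbours in the order overlapped. Mrpl30 had 148 ± 15.8 FPKM (SD, n = 3 pools), Mrpl23, whose protein lies near the exit of the peptide tunnel, 133 ± 10.4, Mrps28 124 ± 13.5, Mrpl53 116 ± 11.7 and Mrpl18 107 ± 9.004. Further high small-subunit genes were Mrps15 with 91.2 ± 3.04 FPKM, Mrps24 with 89.1 ± 8.37, Mrps16 with 73.8 ± 6.90 and Mrps34 with 66.3 ± 4.05. Each of these is a bacterial-type protein gene other than Mrpl53 and Mrps34, which are mitochondria-specific. Mrpl53 shares 14 exonic bases with Ccdc142.

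At the low end stood Mrpl19 with 2.65 ± 0.173 FPKM, Mrpl41 with 5.49 ± 0.773 and Mrpl17 with 6.72 ± 0.560 in the large subunit, and Mrps25 with 5.86 ± 0.296, Mrps2 with 6.52 ± 0.485 and Mrps9 with 11.5 ± 0.324 in the small subunit. These values lean on the annotated exon length, which was 5000 bases for Mrpl19, 6712 for Mrpl17 and 6065 for Mrps25, against a median of 1053 over the 77 genes and 407 for Mrps21. The Spearman correlation of level with exon length was -0.738 in FPKM and -0.193 in CPM over the 77 genes, which are not independent replicates. Exons of Mrpl19, Mrpl41 and Mrps25 also overlap an opposite-strand gene, by 1145 bases (Gcfc2), 1002 bases (Dph7) and 3536 bases (Nr2c2), and their levels are uncertain where strand was not kept.

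**Figure D3:**
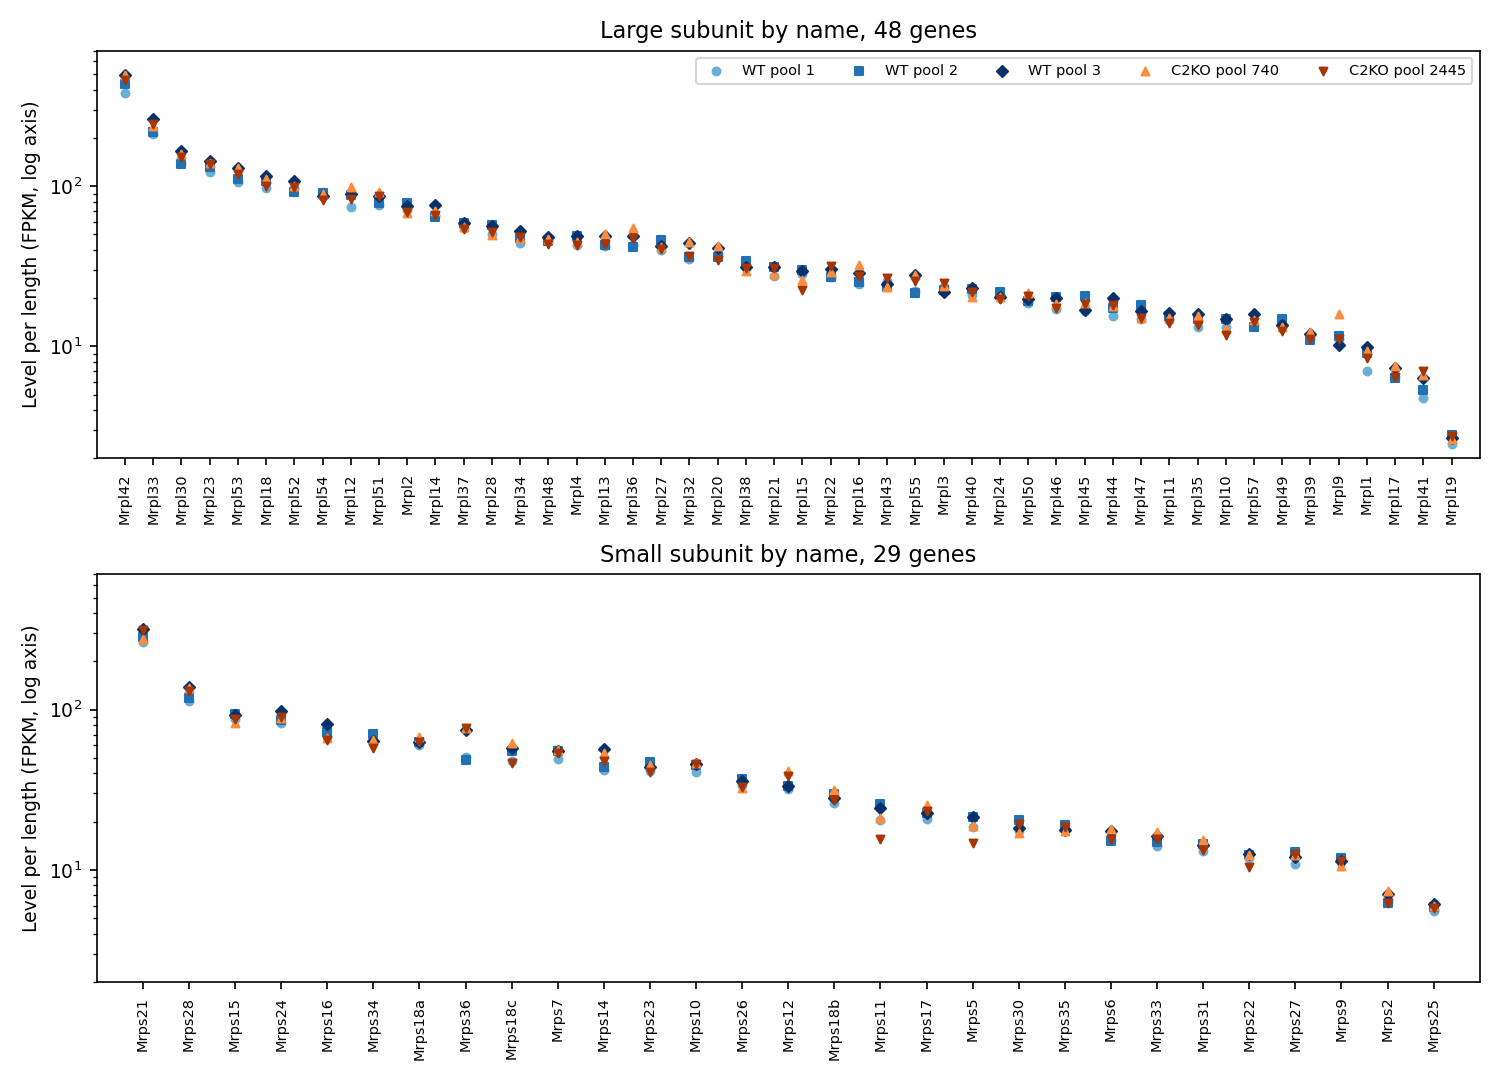
Level per length (FPKM, log axis) of each large-subunit (top) and small-subunit gene (bottom), ordered by the WT mean, with 1 symbol per pool. Mrpl42 and Mrps21 lead at 435 and 289 FPKM, Mrpl19 and Mrps25 close the order at 2.65 and 5.86 FPKM, and for most genes the 5 pools lie on top of each other.

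Genes of this group often start close to a divergent neighbour. In the annotation of the count tables, 27 of the 77 genes (35.1%) had the 5′ end of an opposite-strand gene within 1000 bases upstream, compared with 15.3% of genes averaging 1 CPM or more and 9.22% of all genes. In 1 case the neighbour was another of the 77: the first exons of Mrpl46 (chr7:78775341-78783089, minus strand) and Mrps11 (chr7:78783131-78792988, plus strand), a large- and a small-subunit gene, lie 42 bases apart. Mrps12 starts 187 bases from Sars2, which encodes the mitochondrial seryl-tRNA synthetase, and Mrpl43 starts 116 bases from Peo1, the mitochondrial DNA helicase. Over the 47 fibres Mrpl46 and Mrps11 correlated with r = 0.591, whereas the 19 other neighbours with a mean of at least 1 CPM had a median r of 0.157 with their mitoribosomal partner, from -0.196 (Mrps18b and Ppp1r10) to 0.759 (Mrpl32 and Psma2, a proteasome subunit). Mrps12 and Sars2 had an r of 0.084.

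Upstream sequence was available for 68 of the 77 genes in RefSeq's promoter table (GRCm38.p6), and the 250 bases before each start were searched on both strands for the letters of 6 motifs. NRF1 and GABPA, an ETS protein, are known regulators of nuclear genes for mitochondrial proteins. The NRF1 letters GCATGCGC stood in 11.8% of the windows, against 5.06% for genes averaging 1 CPM or more and 2.32% of all promoters. The ETS letters CCGGAAG stood in 23.5%, 15.2% and 7.05%, and the YY1 letters AAGATGGC in 5.88%, 2.27% and 1.59%. The SP letters GGGCGG stood in 48.5%, 61.2% and 32.9%, the E-box CACGTG in 7.35%, 9.26% and 6.05%, and the ERR letters AAGGTCA in 4.41%, 2.80% and 4.05%. The NRF1 letters were found for 7 of 42 large-subunit and 1 of 26 small-subunit genes, and the ETS letters for 10 of 42 and 6 of 26. The median GC content of the windows was 58.4% for these 68 genes, 60.4% for genes averaging 1 CPM or more and 52.0% for all promoters.

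The sequences below show the kinds of start region the group has, each 5′ to 3′ on the strand of its gene, without bases inside an annotated exon, and with motif letters in either orientation in capitals. Mrpl22 (chr11:58171414-58171653, plus strand) has the ETS and NRF1 letters side by side, 53 and 33 bases before the start. Mrpl42 (chr10:95501950-95502199, minus strand) is the gene with the highest level per length. Mrps36 (chr13:100744660-100744909, minus strand) and Mrps12 (chr7:28741822-28741967, minus strand, between its start and an annotated exon upstream) are 2 of the 6 genes, described below, whose C2KO pools lay above all WT pools. For Mrps11 (chr7:78783090-78783118, plus strand) the 29 bases follow the Mrpl46 exon directly, and the next 12 bases up to the RefSeq start are not shown.
Mrpl22: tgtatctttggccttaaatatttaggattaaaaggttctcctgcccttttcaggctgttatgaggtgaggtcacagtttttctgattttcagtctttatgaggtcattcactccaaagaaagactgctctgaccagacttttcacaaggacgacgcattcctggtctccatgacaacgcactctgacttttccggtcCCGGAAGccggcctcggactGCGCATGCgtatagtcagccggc
Mrpl42: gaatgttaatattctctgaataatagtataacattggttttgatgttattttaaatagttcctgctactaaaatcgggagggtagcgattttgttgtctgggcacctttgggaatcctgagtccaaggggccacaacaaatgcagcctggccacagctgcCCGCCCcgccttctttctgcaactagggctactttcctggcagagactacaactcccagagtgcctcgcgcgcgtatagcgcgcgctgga
Mrps36: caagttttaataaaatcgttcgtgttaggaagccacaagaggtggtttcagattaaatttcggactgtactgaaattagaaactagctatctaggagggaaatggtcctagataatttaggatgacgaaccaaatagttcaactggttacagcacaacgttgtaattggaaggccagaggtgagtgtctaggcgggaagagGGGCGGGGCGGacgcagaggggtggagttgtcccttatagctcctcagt
Mrps12: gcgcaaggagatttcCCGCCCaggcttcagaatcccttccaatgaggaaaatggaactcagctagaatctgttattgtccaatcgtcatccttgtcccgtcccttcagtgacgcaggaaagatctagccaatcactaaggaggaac
Mrps11: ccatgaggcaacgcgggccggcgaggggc

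In these windows Mrpl42 and Mrps12 hold the SP letters in reverse, 90 and 131 bases before the start, and Mrps36 holds an overlapping pair of them at 49 and 44 bases. A match of letters is a description of the sequence and not a bound site.

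The second question was which of the 77 genes differed between C2KO and WT pools. In edgeR's quasi-likelihood test none of the 77 passed an adjusted p under 0.05 with a fold over 1.5, the rule by which 6 of all 12863 genes tested were called (0.0466%). All 77 passed the filter on low counts. DESeq2 also called 0 of the 77, against 1.22% of all genes, and so did limma-voom, against 0.0622%. At an unadjusted p under 0.05, edgeR had 1 of the 77 higher in C2KO (Mrps12), against 6.2% of all genes, and 2 lower (Mrpl15 and Mrps11), against 4.13% of all genes. The counts of the 77 at an unadjusted p under 0.05 were 5 with DESeq2, against 9.85% of all genes, and 4 with limma-voom, against 9.45%, so the shares of the 77, 6.49% and 5.19%, lay below those of the table. The fitted log2 fold changes of C2KO over WT ran from -0.36 to 0.43 with a median of 0.04, and 48 of 77 were positive, compared with a median of -0.0004 over all genes tested, of which 49.9% were positive. The lean to positive values was not stable, as 37 of 77 were positive without C2KO pool 2445 (median -0.005) and 40 without WT pool 1 (0.001). With run in the fit over fibres 60 were positive (0.14), but there the contrast rests on the 1 C2KO fibre of run 0092. The median absolute size of the 77 estimates, 0.081, was below that of all genes tested, 0.172, a set not matched for level. This size was 0.070 for cytosolic ribosomal protein genes and 0.124 for nuclear-encoded respiratory chain genes. The median log2 fold change was 0.04 for the 48 large-subunit genes (30 positive) and 0.05 for the 29 small-subunit genes (18 positive).

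Both C2KO pools lay above all WT pools for 6 of the 77 genes, against 10.7% of all genes tested, and below all WT pools for 7, against 16% of all genes tested. Neither share, 7.79% and 9.09% of the 77, exceeded that of the table.

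**Figure D4:**
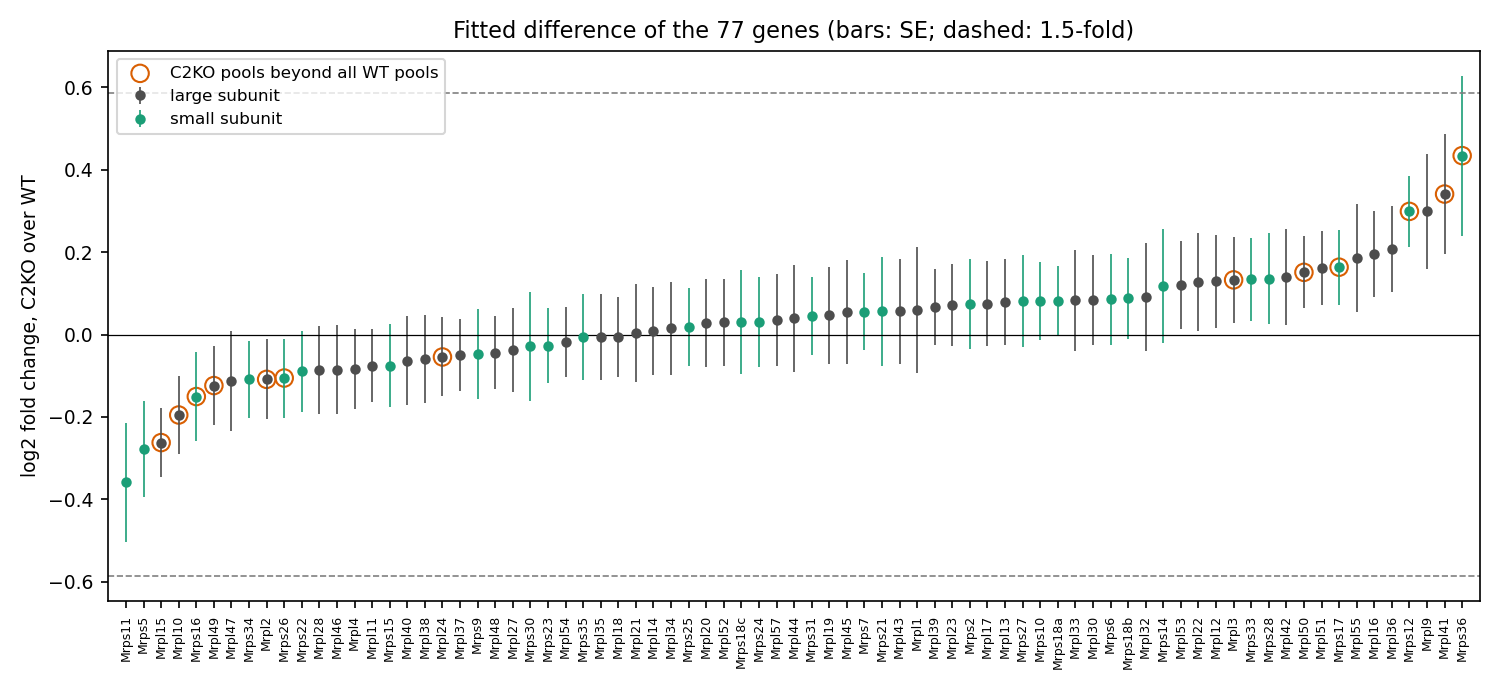
Fitted log2 fold change of C2KO over WT pools for each of the 77 genes, in order of size, with bars of 1 SE and colours for the subunits. Rings mark the 13 genes whose C2KO pools lay beyond all WT pools, and no estimate reaches the dashed lines at a fold of 1.5.

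Mrps36 (chr13:100735940-100744659) had the largest positive estimate. It stood at 36.1, 34.8 and 53.2 CPM in the WT pools, and at 55.4 CPM (740) and 54.8 CPM (2445) in C2KO. WT pool 3 thus lay almost level with the C2KO pools and well above the other WT pools. The log2 fold change was 0.43 (SE 0.19, edgeR adjusted p = 0.504). Within run 0092, from which WT pool 3 came, the 7 WT fibres ran from 42.9 to 58.8 CPM and the C2KO fibre had 77.1 CPM.

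Mrps12, whose protein lies at the decoding centre of the small subunit, had 21.9, 22.9 and 22.9 CPM in the WT pools, and 28.5 CPM (740) and 26.5 CPM (2445) in C2KO. The WT pools were close together and both C2KO pools lay above them, although single fibres overlapped widely, from 17.6 to 36.6 CPM in WT and from 14.5 to 35.7 CPM in C2KO. Its log2 fold change was 0.30 (SE 0.087, edgeR p = 0.0128, adjusted p = 0.413), the lowest adjusted p of the 77. Its divergent neighbour Sars2 had a mean of 23.2 ± 3.78 CPM in WT, and 18.7 CPM (740) and 20.4 CPM (2445) in C2KO, for which the estimate was -0.23 on the log2 scale (edgeR adjusted p = 0.662).

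Mrpl41, a mitochondria-specific large-subunit protein gene, had 11.6, 13.0 and 15.3 CPM in the WT pools, and 16.1 and 17.1 CPM in C2KO. Its log2 fold change was 0.34 (SE 0.14, edgeR adjusted p = 0.489) and -0.14 when run entered the fit over fibres, where the contrast rests on the 1 C2KO fibre of run 0092. Mrps17 and Mrpl50 had smaller estimates, 0.16 and 0.15, of which that of Mrpl50 was -0.052 with run in the fit. The last of the 6, Mrpl3, had an estimate of 0.13, which was 0.037 without C2KO pool 2445 and 0.23 without C2KO pool 740. That of Mrps17 was 0.091 with run in the fit.

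On the lower side Mrpl15 (chr1:4773200-4785726), whose CV was 10.7% in WT and 15.6% in C2KO fibres, had 118, 126 and 124 CPM in the WT pools, and 109 CPM (740) and 93.9 CPM (2445) in C2KO. The C2KO pools lay below all WT pools, and fibres ran from 98.6 to 152 CPM in WT and from 78.1 to 148 CPM in C2KO. Its log2 fold change was -0.26 (SE 0.083, edgeR p = 0.0181, adjusted p = 0.423). The C2KO fibre of run 0092 had 116 CPM, inside the range of the 7 WT fibres of that run (102 to 139 CPM), and with run in the fit the estimate was -0.048.

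Mrpl10, whose protein anchors the stalk of the large subunit, had 22.4, 24.8 and 24.8 CPM in the WT pools, and 21.6 and 19.9 CPM in C2KO. Its estimate, -0.20 on the log2 scale (edgeR adjusted p = 0.530), was 0.13 with run in the fit. Mrps16, Mrpl49 and Mrpl2, of which the last encodes a protein near the peptidyl transferase centre, had estimates of -0.15, -0.12 and -0.11. That of Mrps16 was -0.083 without WT pool 3, and that of Mrpl2 was -0.031 without C2KO pool 740, -0.18 without C2KO pool 2445 and -0.038 with run in the fit. That of Mrpl49, which shares 89 exonic bases with Syvn1, was 0.29 with run in the fit. The other genes whose C2KO pools lay below all WT pools were Mrps26 and Mrpl24, with estimates of -0.11 and -0.054 that were 0.22 and 0.13 with run in the fit. Without C2KO pool 740 they were -0.034 and -1.8e-05.

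Mrps11, Mrps5 and Mrpl9 are described because their estimates were among the largest, a choice made after their values were seen. Mrps11 had 21.3, 26.9 and 25.5 CPM in the WT pools, and 21.9 CPM (740) and 16.2 CPM (2445) in C2KO, so pool 740 lay inside the WT range and pool 2445 below it. Its log2 fold change was -0.36 (SE 0.14, edgeR p = 0.0458, adjusted p = 0.474), the largest negative estimate of the 77. It was -0.21 without C2KO pool 2445, -0.52 without C2KO pool 740 and 0.026 with run in the fit. Its partner Mrpl46 had 17.7, 20.9 and 20.6 CPM in the WT pools, and 18.9 and 17.8 CPM in C2KO, within the WT range. Mrps5 had the same pattern as Mrps11, standing at 26.6, 30.6 and 30.9 CPM in the WT pools, at 26.996 CPM in the 740 pool and at 21.1 CPM in the 2445 pool. Mrpl9 went the other way in the other pool, having 17.8, 18.7 and 16.3 CPM in the WT pools against 25.4 CPM (740) and 17.8 CPM (2445). The estimate of Mrps5, -0.28, was -0.17 without C2KO pool 2445, and that of Mrpl9, 0.30, was 0.100 without C2KO pool 740 and 0.48 without C2KO pool 2445. With run in the fit they were -0.040 and 0.70. The C2KO pools of Mrpl9 differed 1.43-fold, the most of any of the 77. Pool 740 is also the pool with Y-linked counts and the highest fibroblast marker sums, and the part of either in these pool differences was not tested.

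**Figure D5:**
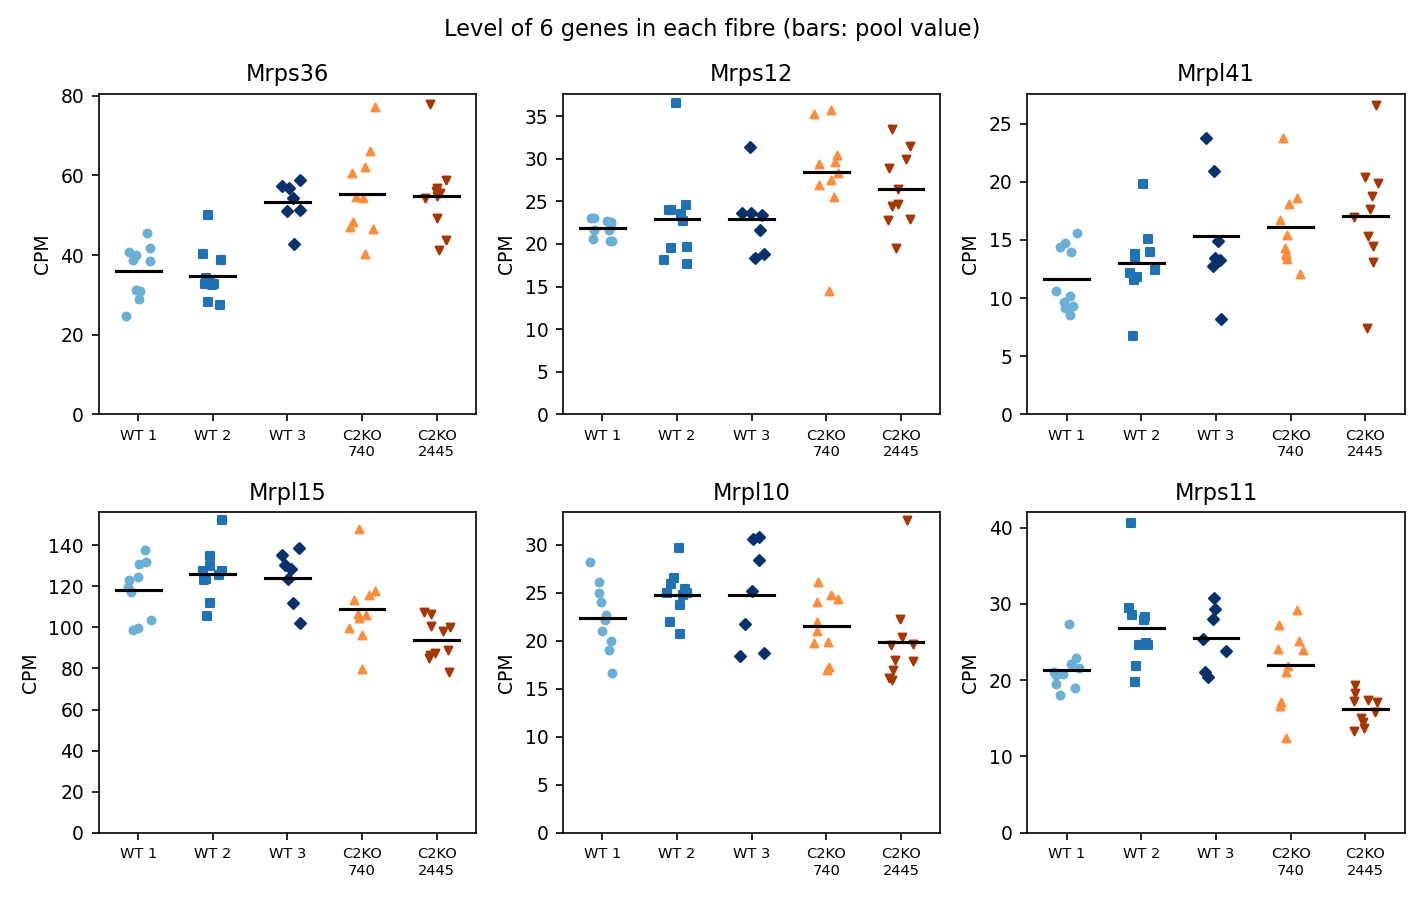
Level (CPM, axes from 0) of 6 of the genes in each of the 47 fibres, by pool, with 1 symbol per fibre and a black bar at the value of the pool. For Mrps36 the WT pool 3 bar (53.2 CPM) is close to the C2KO bars (55.4 and 54.8 CPM), for Mrpl15 both C2KO bars lie below the WT bars, and for Mrps11 the C2KO pool 2445 stands alone at 16.2 CPM.

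With fibres in place of pools as units, which treats fibres of the same mouse as independent, no gene of the 77 passed both thresholds, and at an edgeR adjusted p under 0.05 and any fold 10 of the 77 were higher in C2KO, against 9.79% of all genes tested, and 3 were lower, against 8.56% of all genes tested. With run in this fit 0 of the 77 passed at any fold, against 0.414% of all genes tested, so all 13 calls were lost. The 3 lower genes without run were Mrpl15, Mrps5 and Mrps11. The 10 higher, 13.0% of the 77, had estimates from 0.16 to 0.49 and included Mrps36 (edgeR adjusted p = 8.05e-05, and 0.276 with run), Mrps12 (0.00407, and 0.709 with run) and Mrpl41 (0.0237, and 0.933 with run).

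Other genes of mitochondrial protein synthesis were read from 5 lists. None of their genes was called, against 0.0466% of all genes tested. None had an unadjusted edgeR p under 0.05, against 6.2% higher and 4.13% lower of all genes tested. Of 6 mitoribosomal protein genes with other names, 3 had a positive and 3 a negative estimate (median 0.004). The most abundant were Chchd1, with 75.7 ± 5.28 CPM (SD, n = 3) in the WT pools and a C2KO mean of 78.2 CPM, and Dap3, with 57.7 ± 3.25 and 57.4 CPM. Among 17 translation factors and related genes, 8 estimates were positive and 9 negative (median -0.040). Cox14 had 124 ± 8.31 CPM in WT and 127 CPM in C2KO, and Letm1, a protein of the inner membrane, 93.1 ± 2.17 and 80.9 CPM.

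Of 29 genes of mitoribosome assembly and rRNA modification, 9 estimates were positive and 20 negative (median -0.041). Grsf1, which binds RNA in mitochondrial RNA granules, had 122 ± 7.73 CPM in WT and 122 CPM in C2KO, and Afg3l2, a protease that processes a large-subunit protein, 83.3 ± 2.62 and 85.3 CPM. A list of 22 genes held aminoacyl-tRNA synthetases and the amidotransferase subunit genes Gatb, Gatc and Qrsl1. Of these 22, 7 estimates were positive and 15 negative (median -0.091). Lars2 was the most abundant and the most variable, with 526 ± 255 CPM in the WT pools, and 688 CPM (740) and 412 CPM (2445) in C2KO, while Kars, which serves both the cytosol and mitochondria, had 139 ± 6.42 and 121 CPM. Of 15 genes of mitochondrial transcription and its nuclear regulators, 7 were positive and 8 negative (median -0.00004), and the coactivators Pprc1 (53.1 ± 7.51 and 52.2 CPM) and Ppargc1a (51.2 ± 1.73 and 51.5 CPM) led the list.

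Beside these, 52 of 81 cytosolic ribosomal protein genes had positive estimates (median 0.03), against 49.9% of all genes tested. So did 67 of 77 nuclear-encoded respiratory chain genes (median 0.12). None was called in either list, against 0.0466% of all genes tested. Whether these tallies hold with a pool left out was not tested. At an unadjusted edgeR p under 0.05, 6 respiratory chain genes were higher and 1 was lower. For cytosolic ribosomal protein genes, 1 was higher and 2 were lower. Of all genes tested, 6.2% were higher and 4.13% lower at that threshold.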

How the data were processed

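Single extensor digitorum longus fibres from WT and C2KO mice were profiled by RNA-seq. The authors deposited raw counts per gene for each fibre. According to the processing notes and the file headers, reads were called with CASAVA 1.4, checked with FastQC 0.11.2, aligned with HISAT2 2.0.5 to mm10 and counted over exons by gene name with featureCounts 1.5.2 as reverse-stranded pairs. The sources used here do not state if the kit preserved strand.

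Here counts were divided by the gene counts of the fibre (CPM), and by annotated exon length (FPKM). Fibres were summed into pools by run (WT) or name prefix (C2KO), and C2KO was tested against WT with edgeR 4.0.16 (TMM, filterByExpr, quasi-likelihood test, Benjamini-Hochberg over all genes, adjusted p under 0.05 and fold over 1.5) in R 4.3.3. DESeq2 1.42.0, limma-voom (limma 3.58.1), no filter, no fold threshold, fibres as units without and with run, other scalings and leaving out each pool were alternatives. SEs are the estimate over the square root of the F statistic. The test was tried on simulated counts. Library totals were 7648762 to 14606631, which for the large-subunit sum of a median fibre gives a counting CV of 0.620%. Intervals of counting error leave out PCR copies.

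The genes, lists and tests were chosen with earlier results of these data known. Genes named singly are any that were called, the 6 highest and 3 lowest of each subunit per length in WT, the 5 largest estimates in each direction among genes whose C2KO pools lay beyond all WT pools, any whose C2KO pools differed over 1.5-fold, and the 2 most abundant of each list. Other genes named are not covered by these rules, and only some of them are said to be chosen after their values were seen.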

Additional observations from a re-analysis of the deposited data

Results flagged for a closer look

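Over the sums and the ratio in each pool (15 groups of 7 to 10 fibres), fibre 3 of WT pool 2 stood apart from its pool in the large-subunit sum, with 3365 CPM against 2120 to 2597 CPM in the other fibres of that pool, and in the small-subunit sum, with 1779 CPM against 1087 to 1307 CPM. Its gap to the next fibre was 0.617 and 0.681 of the pool's range, past Dixon's limit for 10 values, which chance passes in about 1 of 20 groups. Its ratio, 1.89, lay inside the pool's range. The same fibre had the lowest share of Atp2a1, Myh4 and Acta1 counts of all 47 fibres (16.2%), the highest cytosolic ribosomal protein sum (6540 CPM) and 31.97 CPM of fibroblast markers, and the part of these in its sums was not tested.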

How the results depend on the processing

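None of the 77 genes was called in the main test or under any of its 14 alternatives. The differences of the large- and small-subunit sums, 0.025 and 0.022 on the log2 scale, moved by less than 1 SD of the WT pools (0.098 for each) under other scalings, without overlapping genes, by place in the mitoribosome, and without 6 fibres over 100 CPM of fibroblast markers or without fibre 3 of WT pool 2, both chosen after seeing the data, as was the test scaled by all gene counts. Leaving out each pool gave -0.025 to 0.073 and -0.029 to 0.068. Run 0092 alone, with 1 C2KO fibre, gave 0.15 for the large and 0.12 for the small subunit. The log2 difference of the ratio, 0.0021, was 0.014 with counts per kilobase, 0.019 by place in the mitoribosome, 0.038 in run 0092 and -0.011 to 0.016 with each pool left out, against an SD of 0.0098. The small over large median level, 1.12 in FPKM, was 0.779 in CPM. The median CV in WT, 15.7%, was 13.9% without fibre 3 of WT pool 2. With run in the fit over fibres 30 of the 77 estimates changed sign, 21 of them to positive. Among the 30 were Mrpl41 (-0.14), Mrpl50 (-0.052), Mrpl10 (0.13), Mrpl49 (0.29), Mrps11 (0.026), Mrps26 (0.22) and Mrpl24 (0.13). In that fit every estimate rests on the 1 C2KO fibre of run 0092 against the 7 WT fibres of that run. No paired analysis was possible because the labels give the groups no shared replicate numbers. With 3 pools against 2 and runs nearly confounded with genotype, genotype cannot be told apart from run or mouse. Fibres of both sex-linked patterns occurred in both genotypes, but each C2KO pool held only 1 pattern. Within C2KO, sex therefore cannot be told apart from pool. Reads shared with processed copies of these genes elsewhere in the genome were not tested.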
